A study of Mus musculus with 21 samples.

Results

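Memory precursors are germinal centre derived B cells on the way to becoming memory B cells. Those that still carried an unswitched heavy chain were compared with those that carried IgG. The cells were taken from the non-plasma-cell (non-PC) fraction and from the state that the deposited cell table names preMem. The name memory precursor follows that label, and the origin and later fate of these cells were not tested. They were chosen by their own heavy chain counts. A cell was called unswitched where Ighm and Ighd together had at least 2 unique molecular identifiers (UMIs, the tags that count captured RNA molecules) and at least 2 times the UMIs of Ighg1, Ighg2b, Ighg2c and Ighg3 together. It was called switched where the reverse held. Of 486 preMem cells, 346 were unswitched, 60 were switched, 40 held both kinds without a clear lead and 40 held too few UMIs to be classed, so 406 of the 6619 cells of the series were used.

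Mice had been injected under the skin at the tail base with 100 µg NP-KLH, a hapten coupled to a carrier protein, in Sigma Adjuvant System. All of them, at every time, received 5 mg tamoxifen once by gavage, which lets Cre-ERT2 switch on the yellow fluorescent protein eYFP. On each of days 10, 16 and 22, draining lymph nodes of 2 mice were collected, and live IgD-negative, eYFP-positive cells were sorted. Each mouse was marked with a hashtag antibody before its cells were pooled by fraction, so both classes of a mouse came from the same node, sort and libraries. No untreated mice were used here. The promoter that drives the Cre, and the strain, sex and age of the mice, are not given in the sources used here. Because the sort removed cells with surface IgD, the unswitched class may lack cells with much IgD protein, although 209 of its 346 cells had an Ighd UMI.

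An unswitched B cell makes IgM and IgD from the first constant genes behind the rearranged variable region. Class switching, driven by the enzyme AID, deletes these and joins the variable region to a downstream constant gene such as Ighg1. Both kinds of cell can enter the memory pool, and memory cells leave the germinal centre cycle, rest and can respond again on a second contact with antigen.

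The heavy chain counts that chose the classes are given as a description. The unswitched cells together held 1633 Ighm, 383 Ighd, 105 Ighg1 and 24 Ighg2b UMIs. The switched cells held 227 Ighg1, 56 Ighg2b, 12 Ighg2c, 6 Ighg3, 25 Ighm and 5 Ighd UMIs. Ighg1 led in 48 of the 60 switched cells, Ighg2b in 7 and Ighg2c in 1, and 4 were tied. Few UMIs stood behind each call: the median of the leading side was 5 UMIs in unswitched and 4 in switched cells. Just inside the rule lay 40 unswitched and 13 switched cells with exactly 2 UMIs on the leading side, and 18 and 9 cells at exactly 2 times the other side. Just outside lay 27 cells with 1 UMI in all and 9 with none.

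The 2 classes were unevenly spread over the mice. Unswitched and switched cells numbered 29 and 11 in day 10 mouse 1, 197 and 35 in day 10 mouse 2, 24 and 1 in day 16 mouse 1, 45 and 5 in day 16 mouse 2, 30 and 2 in day 22 mouse 1, and 21 and 6 in day 22 mouse 2. Gene levels were therefore compared as sums per mouse in the 4 mice with at least 5 cells of each class, which held 349 cells. The sums ran from 103955 to 1168602 UMIs for unswitched and from 38256 to 258228 for switched cells. The smallest, that of the switched cells of day 16 mouse 2, came from 5 cells. Switched cells were deeper in 4 of 4 mice, with a median of 7261 ± 1783 UMIs per cell against 5137 ± 340 (SD, n = 4).

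Both classes carried the markers that name the state. The summed level of 10 memory precursor markers was 1065 to 1550 CPM (UMIs scaled to a common library total without the 6 rule genes) in unswitched and 1009 to 2092 CPM in switched cells. It was 71.2 to 120 CPM in light zone (LZ) cells, where germinal centre B cells meet antigen and T cells, and 42.8 to 60.0 CPM in dark zone (DZ) cells, where they divide and mutate. Germinal centre markers summed to 597 to 976 CPM and 366 to 905 CPM in the classes, against 1528 to 2643 CPM over both zones. Among genes of other lineages, Cd3e, Cd3g, Cd4, Cd8a and Trbc2 of T cells and all 3 NK cell genes were at 0 in both classes of the 4 mice, and Sdc1, Prdm1 and Cd28 of 7 plasma cell markers were at 0 in switched cells. The 7 plasma cell markers summed to 369 to 574 CPM in unswitched and 157 to 285 CPM in switched cells, against 1025 to 1857 CPM over both zones. The 9 T cell genes summed to 62.5 to 164 CPM in unswitched and 26.2 to 69.8 CPM in switched cells. The 6 myeloid genes summed to 11.7 to 34.0 CPM in unswitched and 23.3 to 235 CPM in switched cells, with Lyz2, Fcer1g and Csf1r at 0 in the latter. The part of these lists in the differences between the classes was not tested.

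The unswitched share of memory precursors was above that of the germinal centre cells of the same nodes. Of the classed cells 85.8% ± 9.24 of preMem cells were unswitched, against 45.8% ± 15.7 of LZ and 48.0% ± 11.9 of DZ cells (SD, n = 6 mice). With the classes as defined, the share was higher in preMem cells in 6 of 6 mice. The difference was 40.0 ± 21.2 percentage points against LZ and 37.9 ± 16.7 against DZ, each with a 2-sided exact sign-change permutation p of 0.03125 (adjusted p = 0.03125 over both), the smallest that 6 mice allow. With stricter classes, which need 5 UMIs and 5 times the other side, day 10 mouse 1 turned (61.1% of preMem cells, 11 against 7, and 70.9% of LZ and 61.2% of DZ cells), and the adjusted exact permutation p was 0.0625 for both gaps. Earlier results on the heavy chain genes of these states were known, so this is a measure of size rather than independent support.

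The mean gap between memory precursors and LZ cells was 14.5 percentage points on day 10, 49.3 on day 16 and 56.3 on day 22, but its slope did not pass the adjusted test. On day 10 the unswitched share of preMem cells was 72.5% and 84.9% in the 2 mice, on day 16 it was 96.0% and 90.0%, and on day 22 it was 93.75% and 77.8%. The day means were 78.7%, 93.0% and 85.8% for preMem cells, 64.2%, 43.7% and 29.5% for LZ cells, and 61.4%, 47.2% and 35.3% for DZ cells. The LZ and DZ shares of both mice of a day lay below those of the earlier days, while the preMem shares of day 22 overlapped those of both other days. The slope was 0.588 percentage points per day in preMem cells (exact permutation p = 0.511, over 90 assignments of mice to days, 2-sided). It was -2.90 in LZ and -2.17 in DZ cells, each with exact permutation p = 0.0222 and adjusted p = 0.0556. The slope of the gap was 3.49 against LZ and 2.76 against DZ, each with exact permutation p = 0.0444 and adjusted p = 0.0556. Adjusted over the 5 slopes, 4 of them chosen after the data were seen, none passed 0.05.

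**Figure D1:**
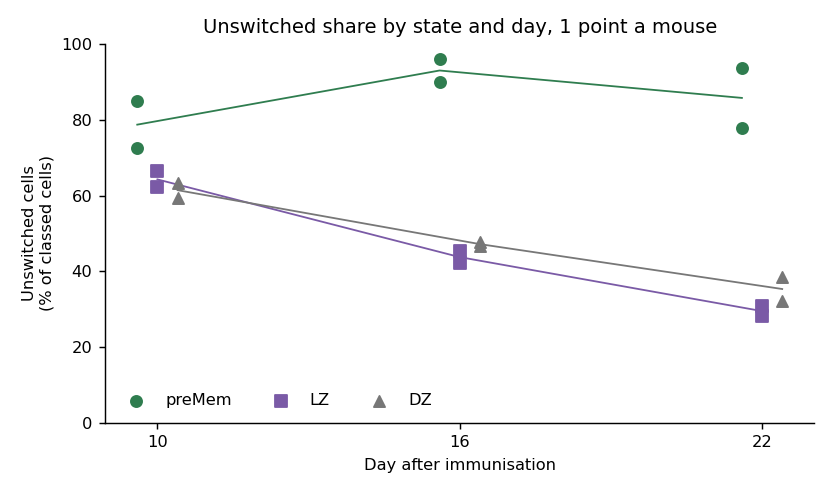
Share of unswitched cells among classed cells (percent, vertical axis) by day after immunisation, with 1 point per mouse and a line through the mean of the 2 mice of a day, for preMem, LZ and DZ cells. The preMem points lie between 72.5% and 96.0%, while the day means of LZ cells go from 64.2% to 29.5%.

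Between the classes, 17 of 1819 genes tested differed (0.935%; edgeR quasi-likelihood test with the mouse as a block, Benjamini-Hochberg adjusted p under 0.05). Of these 13 were lower in unswitched cells (0.715%) and 4 higher (0.220%), and the median log2 difference over all genes tested was 0.01. The genes lower in unswitched memory precursors were Slpi, S100a10, S100a11, S100a6, Sub1, Capg, Ddit4, Vim, Cd52, Tmsb4x, Gimap4, Lgals1 and Pycard. In 12 of the 13 the level was lower in all 4 mice, and in 8 the levels of the classes did not overlap. These counts come from the same sums as the calls and were not made over all genes tested, so they add no support. The 4 genes that were higher were the immunoglobulin variable genes Ighv1-81, Igkv3-2 and Igkv1-135 and the predicted gene Gm8369. All log2 differences are unswitched minus switched.

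Slpi, a secreted inhibitor of neutrophil serine proteases (chromosome 2, 164354070 to 164389095, GRCm38), had the lowest p of the genes lower in unswitched cells. Its level in unswitched cells was 141, 60.0, 46.7 and 38.5 CPM in day 10 mouse 1, day 10 mouse 2, day 16 mouse 2 and day 22 mouse 2, and in switched cells of the same mice 1306, 198, 837 and 129 CPM. Switched cells were higher in each mouse, but the unswitched cells of day 10 mouse 1 lay above the switched cells of day 22 mouse 2. The log2 difference was -2.78 ± 0.32 (SE, edgeR adjusted p = 1.0e-04). The counts were concentrated, with 54 of the 229 switched UMIs in 1 cell and 48.5% in 3 cells. A Slpi UMI was found in 33 of 60 switched cells and 64 of 346 unswitched cells. After thinning every cell to 3426 UMIs these shares were 37.3% and 11.8%, close to 35.8% of LZ cells for the former, so Slpi is not a gene that germinal centre cells lack.

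S100a10, the partner protein of annexin A2 at membranes (chromosome 3, 93555080 to 93564643), was at 93.7, 119, 149 and 299 CPM in unswitched cells in the same order of mice. In switched cells it was at 593, 229, 1098 and 724 CPM. The day 22 mouse was highest among unswitched sums, and overlapped day 10 mouse 2 among switched sums. The log2 difference was -1.89 ± 0.29 (SE, edgeR adjusted p = 0.00241). Germinal centre cells had almost none of this gene. A UMI was seen in 17 of 2347 DZ cells (0.724%, median 9303 UMIs per cell) and 58 of 3116 LZ cells (1.86%, median 7841). The share was 33.8% in unswitched (median 5248) and 43.3% in switched memory precursors (median 6581). Thinned to equal depth the shares were 23.9% in unswitched and 35.6% in switched cells, 0.887% in LZ and 0.303% in DZ cells.

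S100a11, a calcium-binding protein of the same family (chromosome 3, 93520488 to 93526287), was even among unswitched sums at 176, 180, 182 and 221 CPM. Switched sums were 509, 368, 654 and 388 CPM, all higher than any unswitched one. The log2 difference was -1.34 ± 0.21 (SE, edgeR adjusted p = 0.00323). S100a6, the other calcium-binding S100 gene called (log2 -3.25 ± 0.73, edgeR adjusted p = 0.046), rested on few cells and went the other way in 1 mouse. Its unswitched sums were 0, 20.6, 0 and 106 CPM and its switched sums 148, 15.5, 1151 and 621 CPM. Only 9 cells of each class of these mice held a UMI, and 3 cells held 77.3% of the switched UMIs.

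Genes of the cell skeleton and 1 lectin were also lower in unswitched cells. Vim, the intermediate filament protein vimentin (chromosome 2, 13573927 to 13582826), was at 445, 607, 509 and 568 CPM in unswitched and 1176, 860, 1569 and 931 CPM in switched cells. The classes did not overlap and the log2 difference was -1.09 ± 0.20 (SE, edgeR adjusted p = 0.0109). At equal depth the share of cells with a Vim UMI was 69.3% in unswitched and 66.1% in switched cells, so the higher level in switched cells was not a higher share of cells with a UMI. Capg, a protein that caps actin filaments, was at 287, 302, 331 and 472 CPM against 1019, 558, 994 and 750 CPM, again without overlap (log2 -1.28 ± 0.22, SE, edgeR adjusted p = 0.00476). Tmsb4x, which binds actin monomers, was among the most abundant genes of both classes and differed little, at 7468 ± 672 against 9926 ± 2215 CPM (SD, n = 4; log2 -0.43, edgeR adjusted p = 0.0261). Lgals1, a lectin that binds galactosides, stayed between 63.7 and 72.0 CPM in unswitched sums and between 136 and 262 CPM in switched sums (log2 -1.32, edgeR adjusted p = 0.0405).

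The other genes lower in unswitched cells had varied roles. Sub1, a coactivator that binds single-stranded DNA, was at 270, 270, 233 and 453 CPM against 694, 519, 1491 and 957 CPM (log2 -1.52 ± 0.25, SE, edgeR adjusted p = 0.00343). Ddit4, a stress-induced inhibitor of the growth kinase complex mTORC1, was at 234 CPM in unswitched and 435 CPM in switched cells of day 10 mouse 1. In the other mice it lay between 76.2 and 77.0 CPM in unswitched and between 181 and 209 CPM in switched cells, so both classes of day 10 mouse 1 stood above the rest (log2 -1.28, edgeR adjusted p = 0.00825). Cd52, a small surface glycoprotein of lymphocytes, was at 5518 ± 389 against 7430 ± 441 CPM (SD, n = 4; log2 -0.47, edgeR adjusted p = 0.0165). Gimap4, a GTPase of lymphocyte survival, was at 212 ± 56.4 against 463 ± 65.6 CPM (log2 -1.10, edgeR adjusted p = 0.0267), and Pycard, the inflammasome adaptor ASC, at 99.0 ± 27.4 against 275 ± 87.5 CPM (log2 -1.28, edgeR adjusted p = 0.0406). These did not overlap between the classes except for Ddit4.

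**Figure D2:**
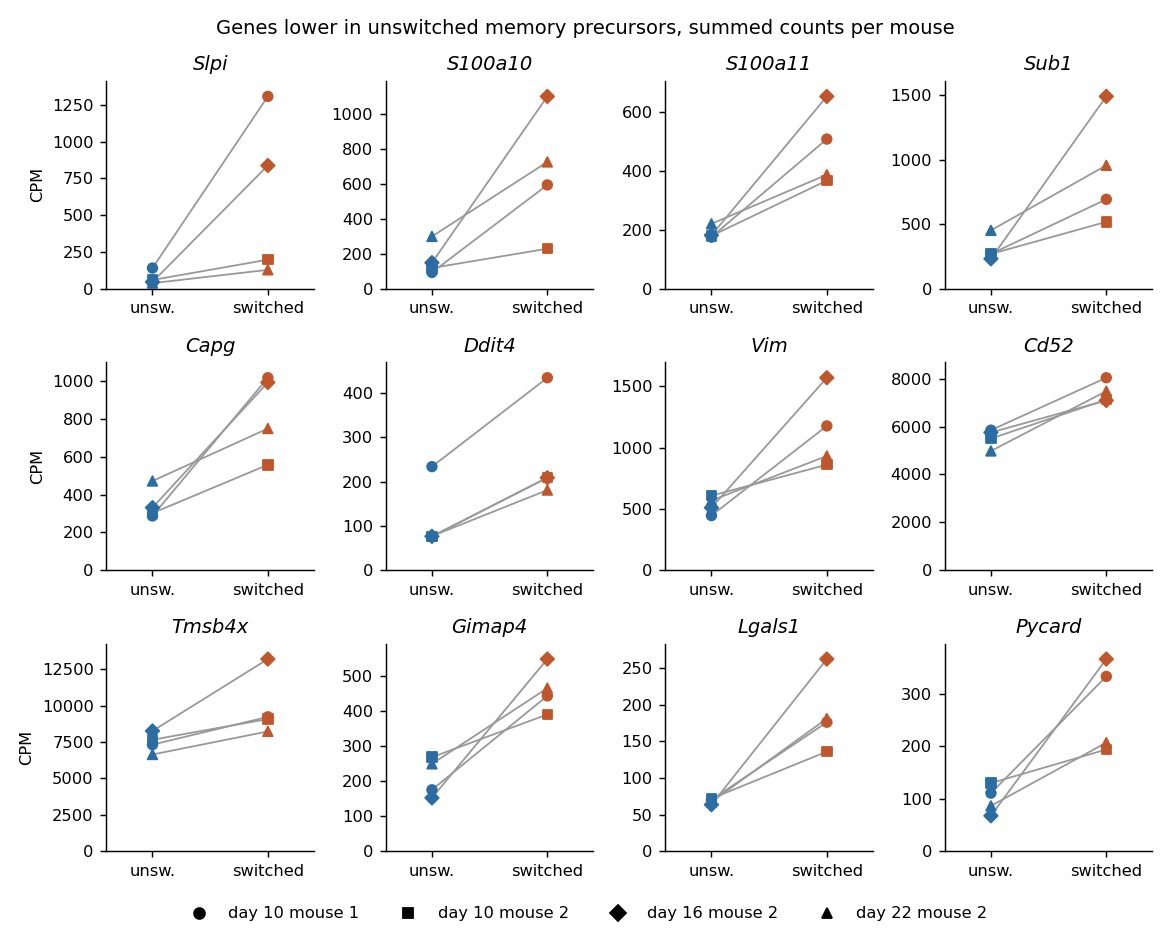
Summed level in CPM (vertical axes from 0, each gene on its own scale) of the 12 genes lower in unswitched cells of all 4 mice, with the unswitched sum (blue) and the switched sum (orange) of 1 mouse joined by a line and the symbol giving the mouse. Each point is a single sum without an error bar, and every line rises to the right, as from 176 to 509 CPM for S100a11 in day 10 mouse 1.

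The promoters of 5 of these genes are shown so that a reader can compare what lies before their starts. The genes share the direction of their calls, and whether they vary together was not tested. They are the 250 bases before the RefSeq start, 5′ to 3′ on the gene's strand, on GRCm38.p6. For Slpi, S100a11 and Vim this start lies inside the GENCODE span given above, so the sources place the start differently. Capitals mark any match, on either strand, to the GC box GGGCGG, the AP-1 motif TGANTCA, the TATA motif TATAAA or the E-box CACGTG.
Slpi, chr2:164356508-164356757, minus strand: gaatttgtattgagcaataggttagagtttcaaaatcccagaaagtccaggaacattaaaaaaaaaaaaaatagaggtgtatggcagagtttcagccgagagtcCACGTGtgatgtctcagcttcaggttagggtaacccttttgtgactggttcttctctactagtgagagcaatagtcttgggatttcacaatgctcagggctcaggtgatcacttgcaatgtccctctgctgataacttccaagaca
S100a11, chr3:93520246-93520495, plus strand: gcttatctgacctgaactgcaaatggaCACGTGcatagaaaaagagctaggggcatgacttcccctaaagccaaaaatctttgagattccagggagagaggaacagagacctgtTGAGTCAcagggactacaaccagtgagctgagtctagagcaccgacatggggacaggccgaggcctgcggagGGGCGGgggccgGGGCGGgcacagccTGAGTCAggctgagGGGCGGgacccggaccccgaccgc
S100a6, chr3:90612644-90612893, plus strand: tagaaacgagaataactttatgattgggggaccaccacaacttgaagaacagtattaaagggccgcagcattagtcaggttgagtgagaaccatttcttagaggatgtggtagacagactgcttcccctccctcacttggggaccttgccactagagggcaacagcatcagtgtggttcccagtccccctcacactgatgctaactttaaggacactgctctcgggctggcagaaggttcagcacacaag
Sub1, chr15:11996008-11996257, minus strand: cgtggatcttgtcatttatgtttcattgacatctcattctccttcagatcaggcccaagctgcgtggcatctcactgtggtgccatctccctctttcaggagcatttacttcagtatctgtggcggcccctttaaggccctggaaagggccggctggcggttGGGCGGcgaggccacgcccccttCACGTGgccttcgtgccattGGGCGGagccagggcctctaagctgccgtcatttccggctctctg
Vim, chr2:13574061-13574310, plus strand: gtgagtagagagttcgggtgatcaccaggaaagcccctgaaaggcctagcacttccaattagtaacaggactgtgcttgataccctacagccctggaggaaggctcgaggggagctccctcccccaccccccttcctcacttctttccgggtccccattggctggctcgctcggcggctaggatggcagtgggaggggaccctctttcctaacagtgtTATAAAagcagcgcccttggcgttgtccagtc
An E-box was in the promoters of Slpi, S100a11 and Sub1, and none of the 4 motifs was in all 5 promoters. The S100a11 promoter held 3 GC boxes, 2 AP-1 motifs and 1 E-box, that of Sub1 2 GC boxes and 1 E-box, that of Slpi 1 E-box, that of Vim 1 TATA motif, and that of S100a6 none of the 4 motifs. Of the 13 genes 10 matched an entry of the table. A GC box was found in 4 of the 10, an AP-1 motif in 1, a TATA motif in 1 and an E-box in 3. All genes with an AP-1 motif, a TATA motif or an E-box are among the 5 shown. Of 32851 promoters of the same length, 32.7% held a GC box, 6.75% an AP-1 motif, 12.4% a TATA motif and 6.02% an E-box. The shares were not compared by a test. A match is a description of letters and not a site in use.

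The gene lists were read against all genes tested. Of 15 genes in the S100, annexin and cytoskeleton list 11 were tested. Among them 5 were called lower (S100a6, S100a10, S100a11, Lgals1 and Vim), 0 were called higher, and all 11 had a negative log2 difference, with a median of -0.67. Over all 1819 genes tested 0.715% were called lower, 879 were negative and 940 positive, and the median was 0.01. The 6 that did not pass ranged from -0.14 for Emp3 to -0.67 for Itgb1, an integrin chain (adjusted p = 0.635). Anxa2, the annexin that S100a10 binds, was at 145 ± 28.1 CPM in unswitched and 185 ± 125 CPM in switched cells (SD, n = 4; edgeR adjusted p = 0.944). Despite its negative log2 difference, Anxa2 was higher in unswitched cells in 3 of 4 mice. Anxa6 and Emp3 were higher there in 2 of 4 mice, and S100a13, Crip1 and Itgb1 in 1. Earlier results of these data were known when this list was made, so its count is no independent evidence of direction.

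Of 22 memory B cell genes 9 were tested, with 1 called lower (Vim), 0 called higher and a median of -0.33. Plac8, a small cysteine-rich protein of lymphocytes, was at 167 ± 88.4 in unswitched and 451 ± 396 CPM in switched cells and did not pass (log2 -1.61 ± 0.46, SE, edgeR adjusted p = 0.144). Cd38, an enzyme on the surface of naive and memory B cells, was at 167 ± 58.6 against 104 ± 19.6 CPM (log2 0.67, edgeR adjusted p = 0.403). The egress regulators Klf2 and Gpr183 had log2 differences of -0.25 and -0.18 (edgeR adjusted p = 0.835 and 0.958). Cd80, Pdcd1lg2 and Nt5e, which code for surface proteins used to divide mouse memory B cells, had too few counts to be tested, with 6, 19 and 18 UMIs in unswitched and 9, 6 and 4 in switched cells.

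No member of the remaining lists passed. Of 10 tested MHC class II genes, which present antigen to T cells, 9 had a positive log2 difference, with a median of 0.20. The largest of these was H2-Aa at 7585 ± 262 against 5970 ± 874 CPM, with no overlap (edgeR adjusted p = 0.299). Of 17 tested genes of B cell receptor signalling 10 were positive, with a median of 0.16. Of 9 glycolysis genes 8 were negative (median -0.23), and of 16 genes of oxidative phosphorylation 9 were positive (median 0.03). Of 6 germinal centre genes 4 were positive (median 0.23). Rgs13, a regulator of G protein signalling in germinal centre B cells, was at 142 ± 68.9 against 63.0 ± 45.4 CPM (log2 1.05, edgeR adjusted p = 0.211). Fas, the death receptor on these cells, was at 86.0 ± 34.6 against 156 ± 55.3 CPM (edgeR adjusted p = 0.261). Of 10 plasma cell and secretion genes 5 were positive (median -0.01), led by Jchain, the joining chain of secreted IgM, with means of 333 and 194 CPM (log2 0.69, edgeR adjusted p = 0.241).

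**Figure D3:**
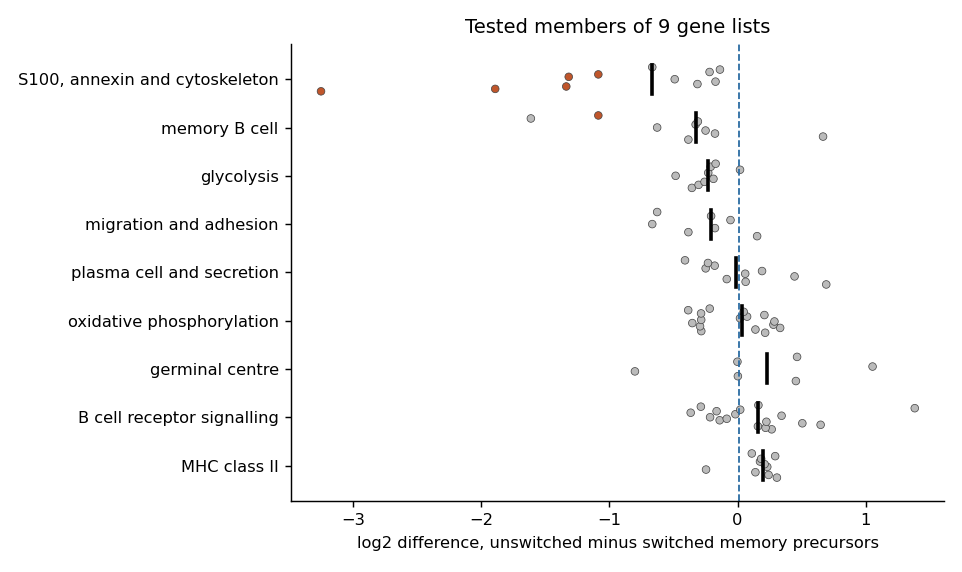
Log2 difference, unswitched minus switched memory precursors (horizontal axis), of each tested gene of 9 lists, with called genes in orange, the list's median as a black bar and the median of all genes tested (0.01) as a dashed line. The S100, annexin and cytoskeleton list has all 11 genes left of 0 and a median of -0.67, and Vim is in 2 of the lists.

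Outside the immunoglobulin genes, the predicted gene Gm8369 was the 1 gene that passed as higher in unswitched cells (183 ± 57.5 against 78.2 ± 36.1 CPM, SD, n = 4; log2 1.28, edgeR adjusted p = 0.0357). The genes with the next lowest p values did not pass. Cd72, an inhibitory coreceptor of B cells, was at 469, 363, 420 and 376 CPM in unswitched and 130, 213, 0 and 181 CPM in switched cells, with no overlap (log2 1.38 ± 0.33, SE, edgeR adjusted p = 0.0624). Foxp1, a forkhead transcription factor of resting B cells, was at 299 ± 49.0 against 154 ± 49.7 CPM (edgeR adjusted p = 0.0929). Cenpa, the histone variant of centromeres, was at 89.0 ± 14.8 against 35.1 ± 11.7 CPM (edgeR adjusted p = 0.0929). The protein disulfide isomerase Pdia6, the vesicle fusion protein Vamp8 and the sorting protein Pxk also did not overlap, at edgeR adjusted p values of 0.0926, 0.0972 and 0.0929. Apart from Gm8369, these genes were picked from those higher in 4 of 4 mice, so that direction adds no support. Overlap was not counted over all genes tested.

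The 3 variable genes that were higher in unswitched cells varied between mice. Igkv1-135 was at 46.9, 1031, 887 and 1656 CPM in unswitched and 37.0, 101, 26.2 and 77.6 CPM in switched cells (log2 3.40 ± 0.39, SE, edgeR adjusted p = 9.9e-05). Igkv3-2 was at 363, 132, 1014 and 790 CPM against 9.26, 27.1, 0 and 51.7 CPM (log2 3.77, edgeR adjusted p = 9.9e-05), and Ighv1-81 at 545, 974, 399 and 164 CPM against 64.8, 190, 52.3 and 25.9 CPM (log2 2.57, edgeR adjusted p = 3.6e-05). Most cells of either class had no UMI of a given one of these genes. In day 10 mouse 2, 1137 Ighv1-81 UMIs came from 197 unswitched cells, of which 60 had a UMI and 44 had 3 or more. For Igkv3-2, 4 cells of that mouse reached 3 UMIs. Cells of 1 clone share a variable gene, and neither clones nor receptor sequences were analysed here. Variable genes of a family are alike in sequence, so how reads were divided among them is uncertain. Ighv1-81 is transcribed together with the constant genes that chose the cells, so its level is not independent of the rule. After thinning to 3426 UMIs, an Ighv1-81 UMI was seen in 21.2% of unswitched and 20.3% of switched cells. The shares were 16.3% and 6.78% for Igkv3-2, and 24.2% and 16.9% for Igkv1-135. The NP-typical variable gene Ighv1-72 was seen in 9.85% ± 0.802 of unswitched and 15.8% ± 17.2 of switched cells per mouse, and cells led by lambda light chains made up 81.2% ± 6.41 and 77.8% ± 7.54 (SD, n = 4).

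The same classes among germinal centre cells (LZ, DZ and the state between them, in the same 4 mice, 2895 cells) were compared in the same way. Of 9039 genes tested 41 passed (0.454%), with 34 higher and 7 lower in unswitched cells, and 13 of the 34 were heavy chain variable genes. Those 13 are likewise transcribed together with the constant genes of the rule. Without the mouse as a replicate block 0 passed. Of the 17 genes called in memory precursors 4 were also called here, in the same direction: Slpi, Ighv1-81, Igkv1-135 and Gm8369, with log2 differences of -0.69, 2.04, 1.36 and 0.55. Of the 13 genes lower in unswitched memory precursors, 11 could be tested there and only Slpi was called lower, at 179 ± 44.8 against 287 ± 63.3 CPM (SD, n = 4; log2 -0.69, edgeR adjusted p = 0.00151). The other 10 did not pass, with log2 differences between -0.08 for Pycard and 0.24 for Sub1. S100a10 and S100a6 had too few counts there to be tested. Foxp1 and Cd72 were called higher in unswitched germinal centre cells, by 0.57 and 0.99 log2 units (edgeR adjusted p = 0.00151 and 0.0102), and had positive log2 differences in memory precursors too.

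The difference of the contrast between the populations was itself tested, and 11 of 8301 genes passed (0.133%), 9 more negative and 2 more positive in memory precursors (2 genes without the mouse as a replicate block). Over all these genes the median was 0.12 log2 units. Of the 13 genes lower in unswitched memory precursors 6 passed: S100a11 (-1.35 ± 0.17), Sub1 (-1.57 ± 0.22), Ddit4 (-1.39 ± 0.20), Slpi (-1.95 ± 0.29), Lgals1 (-1.25 ± 0.23) and Gimap4 (-1.04 ± 0.19, all log2 ± SE), with edgeR adjusted p values between 0.00395 and 0.0376. S100a10 (-2.57, adjusted p = 0.237), Capg (-1.19, adjusted p = 0.0691) and Vim (-1.01, adjusted p = 0.0605) did not pass. Cenpa passed in the other direction by 1.54 ± 0.28. In germinal centre cells it was at 201 ± 18.5 and 206 ± 29.6 CPM in the classes, well above either class of memory precursors. Ly6d, a small surface protein of the Ly6 family, passed by -1.18 ± 0.18, since it was higher in unswitched germinal centre cells (193 ± 22.8 against 78.1 ± 26.3 CPM) and level in memory precursors (1417 ± 577 against 1411 ± 674 CPM).

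**Figure D4:**
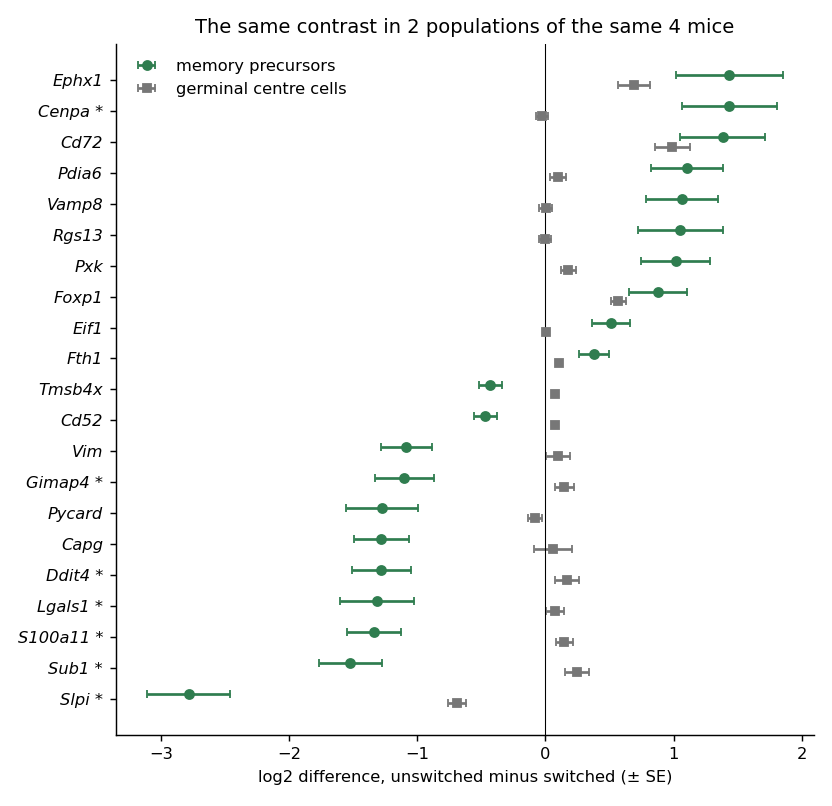
Log2 difference, unswitched minus switched, with its SE (horizontal axis) in memory precursors (green circles) and germinal centre cells (grey squares) of the same 4 mice, for 11 genes lower and 10 genes with the lowest p higher in unswitched memory precursors, where an asterisk marks a difference between the populations that passed. Most grey squares lie near 0, and Slpi, Cd72, Foxp1 and Ephx1 are the genes whose squares passed.

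Levels in cells outside the comparison were pooled over mice. In the 54 unswitched cells of the 2 mice outside the fit all 13 genes lay below the switched level. S100a10 was at 151 CPM there, against 135 CPM over all unswitched and 428 CPM over all switched memory precursors. The 40 cells with both kinds of heavy chain lay between the classes in 12 of 13 genes, with S100a10 at 314 CPM, S100a11 at 262 CPM and Slpi at 104 CPM. The 13 genes were chosen because their levels were high in nearly the same switched cells. Neither count is therefore independent support, and neither was set against all genes tested.

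Plasma cell precursors (prePC, 37 cells of the same fraction) had high levels of several of these genes. In 8 of the 13 genes the prePC level lay above that of switched memory precursors, in 4 between the classes and in 1 below both. S100a10 was at 605 CPM in prePC cells, Sub1 at 1269 CPM, Slpi at 1974 CPM and Vim at 1114 CPM. In LZ cells 11 of the 13 genes were below the unswitched level, with S100a10 at 4.53 CPM and Capg at 30.4 CPM, while Slpi was at 233 CPM and Lgals1 at 78.7 CPM. The plasma cell fraction also held 30 unswitched and 3 switched preMem cells. There 8 of the 13 genes were lower in unswitched cells, but the 3 switched cells all came from day 16 mouse 1 and held between 0 and 8 UMIs of each gene but Cd52 and Tmsb4x.

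**Figure D5:**
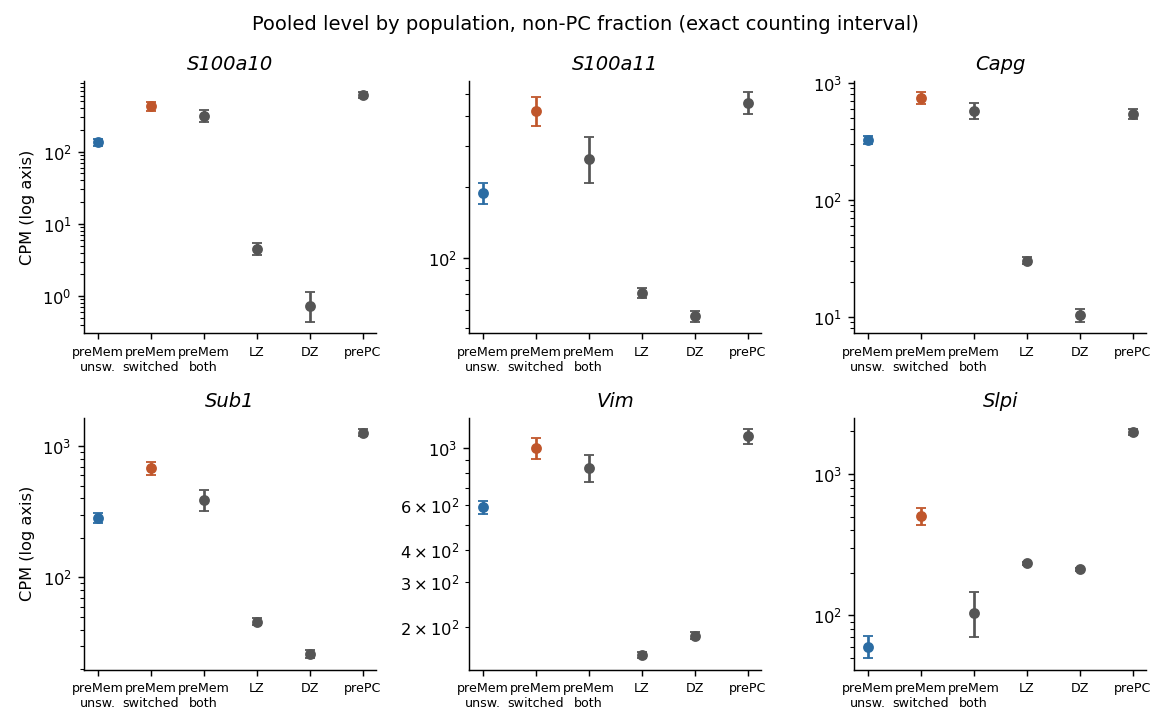
Level in CPM (log axis) of 6 genes in cells pooled over mice, by population of the non-PC fraction, with the exact 95% Poisson interval, which covers counting error only ("both" marks the 40 memory precursors with both kinds of heavy chain). In all 6 genes the switched point lies above the unswitched one, as 428 against 135 CPM for S100a10.

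Of 11 measures of the whole cell, compared over mice with 2-sided exact sign-change permutation tests, 0 passed, and the smallest p that 4 mice allow is 0.125. The depth and the number of genes per cell were lower in unswitched cells in 4 of 4 mice (means of 1689 and 2072 genes, n = 4, exact permutation p = 0.125, adjusted p = 0.458). The deposited light zone score was also lower in 4 of 4 mice (0.187 ± 0.0207 against 0.243 ± 0.0443, same p). The deposited memory score was 0.866 ± 0.0210 against 0.899 ± 0.0493 and the plasma cell score 0.164 ± 0.0170 against 0.181 ± 0.0323. Over all mice 323 of 346 unswitched and 57 of 60 switched cells were called G1, and 318 and 51 lay in the deposited cluster 4. In day 16 mouse 2, whose switched sum was the smallest, the G1 share was 95.6% of unswitched but 60.0% of switched cells. In the other mice of the fit it was 97.1% or more of switched cells.

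The number of calls moved with the mice and cells used. Slpi and S100a10 passed in 15 of 16 other settings, while Tmsb4x passed in 8 and Lgals1, Gimap4 and Pycard in 9 of 16. Without day 10 mouse 1 the genes lower in unswitched cells fell from 13 to 4, and without day 10 mouse 2 they numbered 23. With cells thinned to equal depth 6 were called, and with classes that need 5 UMIs and 5 times the other side, which left 2 mice, 0.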

How the data were processed

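Counts of UMIs per gene and cell came from 10x Genomics 5′ libraries, which the authors processed with Cell Ranger and Seurat against mm10/GRCm38, per the submitters' processing notes, and deposited as raw counts for 14493 genes in 6619 cells. The deposited cell table gives the mouse, day, fraction, state, phase, cluster and module scores (unit: score). How states, phases and scores were made, and how doublets were treated, is not given in the sources used here. No doublet caller was run and no cell was removed. Matrix sums equalled the deposited totals in 6619 cells, and 6 barcodes occurred in both fractions. The 21 samples are pooled libraries, so the mouse was the replicate, and its number within a day is only a name.

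Raw counts were summed per mouse and class, the 6 rule genes left out, and fitted in edgeR 4.0.16 (TMM, filterByExpr, quasi-likelihood F test, mouse as block because both classes came from the same mice, R 4.3.3). Adjusted p values are Benjamini-Hochberg over all genes tested, threshold 0.05, and the SE is the log2 difference over the square root of F. edgeR raises the p of genes less variable than Poisson counts, which changed no call (17, 41 and 11 genes with and without). Fits were also run on simulated counts with a single dispersion and no differences between mice. That run therefore cannot show how the fits handle sums that vary between mice. The lists, members and tests were chosen with earlier results of these data known. Named genes were up to 12 called genes per direction with at least 20 CPM and the same sign in all mice (no predicted, mitochondrial or immunoglobulin genes), or the 10 with the lowest p where under 10 passed, and up to 4 per list. S100a6, Gm8369, the variable genes and other list members were named after their values were seen. Results were recomputed with DESeq2 1.42.0, other filters, classes and depths, and without each mouse. Gene positions are from GENCODE on GRCm38.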

Additional observations from a re-analysis of the deposited data

Results flagged for a closer look

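Of 29 sets of mice tested for a mouse far from the others, 4 had one, and chance flags about 1 in 20 sets. In unswitched memory precursors day 22 mouse 2 stood above the other 3 mice for S100a11 (221 CPM) and Sub1 (453 CPM). Ddit4 of day 10 mouse 1 stood above the other mice both in unswitched (234 CPM) and in switched cells (435 CPM).

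The difference between unswitched and switched cells was not the same in memory precursors and germinal centre cells for 11 genes, by the edgeR test of that difference (adjusted p under 0.05). It was more negative in memory precursors, in log2 units, for S100a11 (-1.35), Sub1 (-1.57), Ddit4 (-1.39), Slpi (-1.95), Ly6d (-1.18), Lgals1 (-1.25), Gimap4 (-1.04), Gimap7 (-1.14), another GTPase of that family, and Glipr1 (-1.82). It was more positive for the variable gene Igkv3-2 (4.13) and for Cenpa (1.54). Glipr1 had too few counts to be tested in memory precursors alone.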

How the results depend on the processing

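With at most 4 mice and as few as 5 switched cells in a mouse, the number of calls moved with the settings, while none of the 17 genes called in memory precursors changed direction in the settings that tested it. Of genes higher and lower in unswitched memory precursors (4 and 13), no filter on low counts gave 55 and 36 (all genes then shifted by 0.21 log2), sums of at least 10 cells, from 2 mice, 14 and 23, and thinned cells 2 and 6. Without immunoglobulin genes 2 were higher, and with switched cells led by Ighg1 13. Stricter classes left 0 lower (117 genes in either direction at an unadjusted p under 0.05, edgeR). Without 1 mouse the counts were 4 to 13 higher and 4 to 23 lower, with 13 higher and 23 lower without day 10 mouse 2, and 4 lower without day 10 mouse 1. Cluster 4 cells only, an alternative chosen after seeing the data, gave 5 higher and 18 lower, with all 17 calls shared. Without the replicate block, which pairs the classes of 1 mouse, 2 were higher and 10 lower, 0 germinal centre genes passed (467 at an unadjusted p under 0.05) and 2 differences passed. Germinal centre calls (41) numbered 172 without the filter, 5 with cells drawn down to the number of memory precursors (3 of them among the 41), and 25 to 41 without 1 mouse (25 without day 16 mouse 2). Differences (11) numbered 46 with DESeq2, 119 without the filter, 2 with cells drawn down (0 of them among the 11), and 5 to 21 without 1 mouse (5 without day 22 mouse 2, 21 without day 10 mouse 2). The gap in the unswitched share was 33.6 points against LZ and 35.3 against DZ with stricter classes (adjusted exact permutation p = 0.0625). Without 1 mouse it was 34.9 to 45.9 and 34.4 to 42.8 points at p = 0.0625, the smallest that an exact permutation of 5 mice allows. Without 1 mouse the slope of the preMem share was -0.112 (without day 10 mouse 1) to 1.41 points per day. The causes were not tested.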
